A study of Homo sapiens with 6 samples.

Results

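The mRNAs described here are those of numbered ZNF genes, whose symbol is ZNF followed only by digits and which mostly encode C2H2 zinc finger proteins. Members were chosen by their summed count: every row with such a symbol and at least 60 counts over the 6 libraries was taken, with 1 symbol left out by the rule. Of 475 symbols of this form, 175 met the minimum, 226 had 1 to 59 counts and 74 had none, in a table of 26364 genes. The libraries came from HEK293T, an established human embryonic kidney cell line, and every culture had received 200 nM okadaic acid for 3 h. In 3 libraries (replicates 3, 6 and 9) RNA had been pulled down with an anti-phospho-UPF1 antibody, and these are called p-UPF1 IP (immunoprecipitation) here. The other 3 (replicates 1, 4 and 7) are titled pre-IP, but their antibody label is rabbit IgG, so the labels conflict on whether they are input or mock IP. No label states that replicates were separate cultures, so the p-values speak of library-to-library spread alone, possibly technical.

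UPF1 is the core helicase of NMD (nonsense-mediated mRNA decay). It is phosphorylated on mRNAs committed to this decay, and okadaic acid blocks the phosphatases that remove the phosphate. The study sequenced decay intermediates held by p-UPF1 in order to find direct NMD targets. In a C2H2 zinc finger, a pair of cysteines and a pair of histidines hold a zinc ion, and arrays of such fingers bind DNA or RNA. Many human ZNF proteins also carry a KRAB domain, which recruits the corepressor TRIM28 and, through it, the histone methyltransferase SETDB1. KRAB genes lie in clusters of related copies, many of them on chromosome 19.

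The rule of at least 60 counts read both groups, and p-UPF1 IP supplied 63.8% of all counts in the table but 85.9% of the members' counts, 27713 against 4554. The p-UPF1 IP counts alone reached 60 in 153 members, and the pre-IP counts alone in 17. A ZNF mRNA that was low in p-UPF1 IP was therefore less able to enter, and the shares and medians below describe the members without supporting a direction for ZNF mRNAs in general. Just inside the minimum, ZNF462 had 9, 0 and 1 counts in pre-IP and 19, 20 and 11 in the p-UPF1 IP, and ZNF608 had 8, 1 and 4 against 7, 27 and 13. Just outside it, at 59 counts, ZNF304 had 6, 2 and 5 against 22, 15 and 9, and ZNF432 had 0, 0 and 0 against 35, 17 and 7. Genes on both sides of the minimum thus had most of their counts in p-UPF1 IP. After TMM scaling, however, the p-UPF1 IP group was 4.76 times as large as the pre-IP group. Scaled in this way, the ratio of p-UPF1 IP to pre-IP was 1.05 for ZNF462, 0.76 for ZNF608 and 0.74 for ZNF304. For ZNF432 it was at least 4.13, against a floor of 3 pre-IP counts. Most raw counts in p-UPF1 IP therefore do not mean a higher level there.

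Depth was low for single members. The 3 pre-IP libraries held 600244 to 1179369 counts, and the others 905926 to 2057647. The median member had 9, 2 and 5 counts in libraries 1, 4 and 7 of the pre-IP group and 44, 38 and 26 in libraries 3, 6 and 9 of the p-UPF1 IP. No count was seen for 15, 52 and 34 members in the respective pre-IP libraries, and every member was counted in every p-UPF1 IP library. A count of 0 still allows up to 3.84, 10.7 and 5.18 CPM (counts scaled by TMM effective library size) in the 3 pre-IP libraries. Over the 141 members that passed the filter on low counts, log2(CPM + 1) correlated between pre-IP libraries with Pearson's r of 0.50 to 0.58 and between p-UPF1 IP libraries with r of 0.74 to 0.82. These correlations run across genes, which are not independent replicates. The HEK293T markers VIM, NEFL, NEFM and KRT18 were tested and not called, whereas PAX2 and LHX1 had 0 counts in pre-IP and 9 and 32 in the p-UPF1 IP. None of 12 markers of blood, liver, fibroblast, muscle or epidermis had enough counts to be tested, and 9 of them were at 0 in every library.

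The members made up a larger share of the p-UPF1 IP libraries than of the pre-IP libraries. They held 0.204%, 0.102% and 0.162% of all counts in pre-IP replicates 1, 4 and 7, against 0.570%, 0.532% and 0.684% for replicates 3, 6 and 9 of the p-UPF1 IP. The groups did not overlap, and the means were 0.156% ± 0.051 and 0.595% ± 0.079 (SD, n = 3 each), a ratio of 3.81. Protein-coding genes as a whole held 30.9% ± 6.22 and 63.3% ± 9.29, a ratio of 2.05. Within protein-coding counts the members held 0.578%, 0.428% and 0.485% in pre-IP and 0.927%, 0.967% and 0.932% in the p-UPF1 IP. On this scale the groups again did not overlap, with a ratio of 1.89. Members with a KRAB pattern and members without one had similar ratios, 3.74 and 3.85. No test was run on these sums, which are scores over chosen members. All these shares divide by raw counts, whereas the CPM and the main fit use TMM effective sizes. By effective size, p-UPF1 IP was 4.76 times pre-IP, beside 27713 against 4554 member counts. The ratio of 3.81 is therefore not a fold change on the TMM scale, where the members' difference was smaller.

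**Figure D1:**
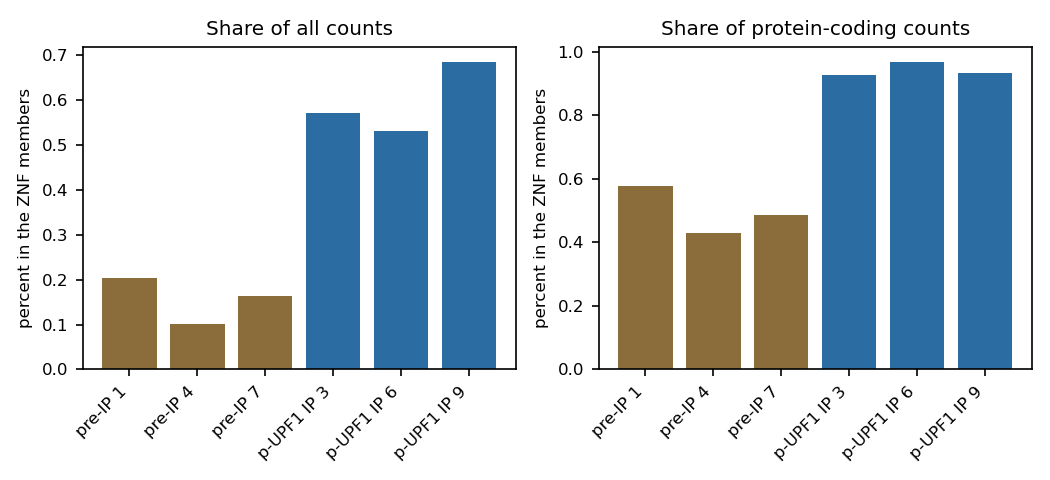
Share of counts in the 175 ZNF members in each library, as a percent of all gene counts and as a percent of protein-coding counts; each bar is 1 library, brown for pre-IP and blue for p-UPF1 IP. The p-UPF1 IP libraries lie between 0.532% and 0.684% of all counts, above the pre-IP libraries at 0.102% to 0.204%. Both shares are of raw counts, without TMM scaling.

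Gene by gene, 15 of the 141 tested members were higher in p-UPF1 IP and 2 were lower at an adjusted p of 0.05 (edgeR's quasi-likelihood test on all 8070 tested genes, Benjamini-Hochberg adjustment). The higher calls made up 10.6% of the tested members, where the background was 8.81% of all tested genes and 9.17% of tested protein-coding genes. A share this near the background is not a result about the members. The lower calls made up 1.42%, against 10.9% of all tested genes and 7.87% of protein-coding genes, but the rule disfavoured mRNAs that were low in p-UPF1 IP. Read with library totals alone in place of TMM, which moved the median log2 fold change of all genes from 0.10 to 1.63, the split was 96 higher and 0 lower, or 68.1% higher against 60.4% of all tested genes. The higher count was 6, 8 and 7 without p-UPF1 IP replicates 3, 6 and 9, and 29 without pre-IP replicate 1, 19 of which were not among the 15. Those counts were 3.97%, 5.30%, 4.43% and 17.5% of the tested members, against 3.30%, 3.99%, 3.62% and 9.03% of all tested genes in the same fits. The lower count was 0, 1 and 0 without p-UPF1 IP replicates 3, 6 and 9, and 5 without pre-IP replicate 4.

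The tested members had a median log2 fold change of 0.68, with quartiles of -0.18 and 1.41, against 0.10 for all tested genes and 0.15 for protein-coding genes. A positive value was found for 96 members (68.1%), against 53.8% of all tested genes. The 3 p-UPF1 IP libraries lay wholly above the 3 pre-IP libraries in 43 members (30.5%), with a background of 21.9%. They lay wholly below in 9 members (6.38%), with a background of 17.7%, and the libraries of the other 89 overlapped. Those 9 were ZNF587, ZNF786, ZNF622, ZNF330, ZNF428, ZNF121, ZNF124, ZNF853 and ZNF22, named after their values were seen. The 34 members that were not tested did not pass the filter, which asked for enough counts in at least 3 libraries. A member with few pre-IP counts could pass it only with enough counts in all 3 p-UPF1 IP libraries. ZNF180, with 18, 52 and 29 counts in p-UPF1 IP, was not tested, and ZNF830, with a sum of 60, was tested. Both are named after their values were seen. The medians and shares of tested members are therefore in part set by this filter too. None of the ZNF rows under 60 counts was tested.

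**Figure D2:**
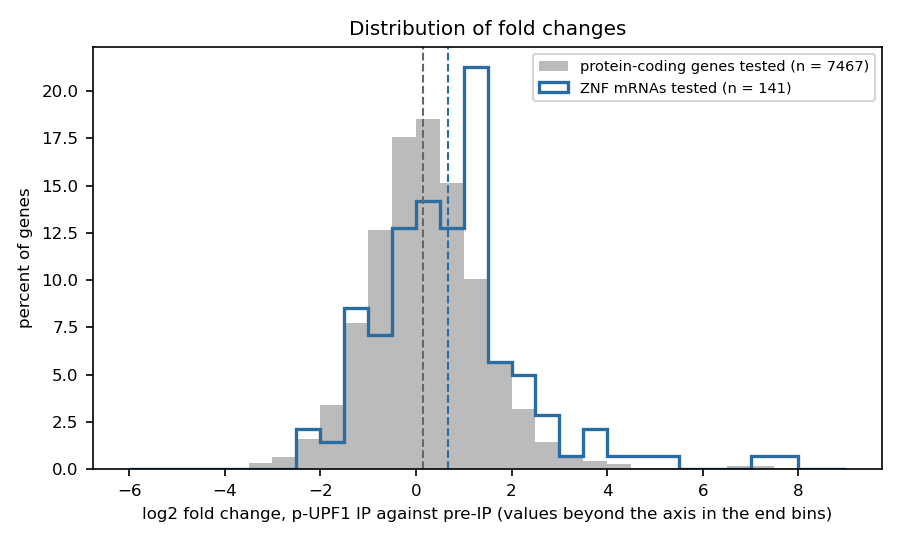
Distribution of the fitted log2 fold change (p-UPF1 IP over pre-IP) in the 141 tested ZNF members and in the tested protein-coding genes, each as a percent of its genes, with dashed lines at the medians. The members' median is 0.68 against 0.15; the values far to the right belong to ZNF273 and ZNF616, which had 0 pre-IP counts and whose fitted values depend on the prior count.

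Of the higher calls, 5 had more than 20 pre-IP counts. ZNF711, an X-linked regulator that partners the demethylase PHF8 and is mutated in intellectual disability, had 37, 1 and 5 counts in pre-IP and 397, 242 and 148 in the p-UPF1 IP. Its CPM were 47.3, 3.58 and 8.64 against 121, 88.1 and 82.8, so every p-UPF1 IP library was above every pre-IP library and pre-IP replicate 1 stood well above the other two. The log2 fold change was 2.06 (SE 0.51, edgeR adjusted p = 0.00909). The log2 fold change was 3.82 without pre-IP replicate 1, and the call was lost without p-UPF1 IP replicate 3 (edgeR adjusted p = 0.0517).

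ZNF317, a KRAB protein with 13 predicted fingers, had 16, 2 and 6 counts in pre-IP and 143, 189 and 100 in the p-UPF1 IP. The CPM were 20.5, 7.16 and 10.4 against 43.7, 68.8 and 55.9, with a wide gap between the groups. It rose by 2.01 on the log2 scale (SE 0.45, edgeR adjusted p = 0.00506), and was the only member with more than 3 pre-IP counts that was called in each of the 19 alternative fits. Its log2 fold change was 2.60 without pre-IP replicate 1. ZNF326, a subunit of the DBIRD complex that links RNA polymerase II elongation to splicing, had 11, 8 and 2 counts against 140, 150 and 71. Its CPM of 14.1, 28.6 and 3.46 rose to 42.8, 54.6 and 39.7 without overlap. The log2 fold change was 1.75 (SE 0.54, edgeR adjusted p = 0.0294), and the call was lost without any 1 library except pre-IP replicate 4, with adjusted p of up to 0.132.

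ZNF146 encodes a protein made almost only of zinc fingers. It had 36, 10 and 12 counts in pre-IP and 289, 177 and 178 in the p-UPF1 IP, or 46.1, 35.8 and 20.7 CPM against 88.3, 64.4 and 99.6. The lowest p-UPF1 IP library was above the highest pre-IP library, and the log2 fold change was 1.28 (SE 0.37, edgeR adjusted p = 0.0221). The call was lost without p-UPF1 IP replicate 3 or 9 or pre-IP replicate 7, with adjusted p of 0.0901, 0.103 and 0.0691. Reads of ZNF565, which overlaps it on the other strand, cannot be told apart because the strand setting of the counting is not given in the sources used here.

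ZNF503, a NET-family corepressor in whose protein no C2H2 pattern was matched, was the most counted member. It had 43, 39 and 32 counts in pre-IP and 425, 624 and 261 in the p-UPF1 IP, or 55.0, 139.6 and 55.3 CPM against 129.8, 227 and 146. Pre-IP replicate 4 was above p-UPF1 IP replicate 3, so the groups overlapped, which was the case for no other higher call. The log2 fold change was 1.09 (SE 0.37, edgeR adjusted p = 0.0491). It was called in 9 of 19 alternative fits, being lost without any 1 library except pre-IP replicate 4, and its log2 fold change was 0.44 (adjusted p = 0.458) once the trend with GC content was removed. Per kilobase of transcript it was also the most abundant member in p-UPF1 IP, at 50.1 CPM per kb, ahead of ZNF768 at 39.5 and ZNF207 at 35.3, and its pre-IP level was 24.9. Counts of its antisense gene ZNF503-AS2, listed on a row of its own with 45, could not be separated from it without strand.

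ZNF516, a repressor linked to the CtBP corepressor complex, had 1, 2 and 3 counts in pre-IP and 45, 75 and 62 in the p-UPF1 IP. The CPM were 1.28, 7.16 and 5.18 against 13.7, 27.3 and 34.7, with no overlap. It rose by 2.67 on the log2 scale (SE 0.76, edgeR adjusted p = 0.0206). The call was lost without p-UPF1 IP replicate 6 or 9 or pre-IP replicate 1, with adjusted p of 0.0889, 0.129 and 0.0689, and with limma-voom (0.0674) or the length trend removed (0.0667). The log2 fold change was 2.07 without pre-IP replicate 1.

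**Figure D3:**
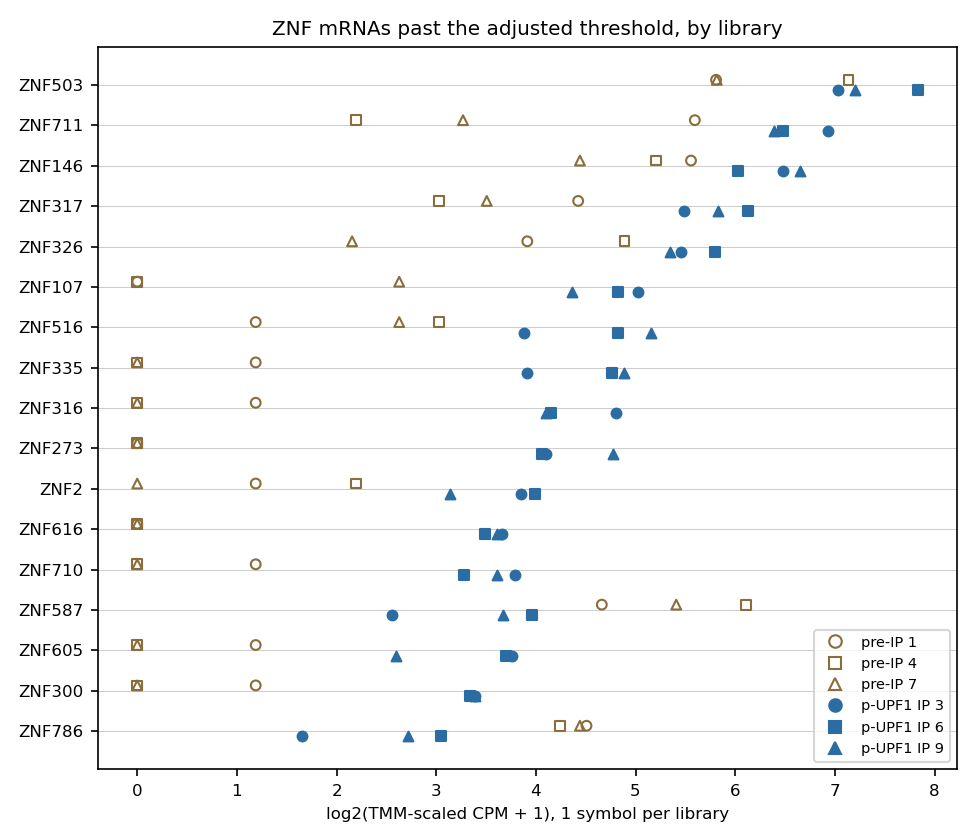
Level of each called ZNF member as log2(CPM + 1), with 1 symbol per library, open brown for pre-IP and filled blue for p-UPF1 IP. In 14 of the 15 higher calls the p-UPF1 IP points lie above every pre-IP point, with ZNF503 as the exception; in ZNF587 and ZNF786 they lie below.

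The other 9 higher calls rested on 0 to 3 pre-IP counts in all, so the size of their difference is poorly known. Of all 175 members, 19 had 3 or fewer pre-IP counts. ZNF335, a component of a histone H3K4 methyltransferase complex that is mutated in microcephaly, had 1, 0 and 0 counts in pre-IP and 46, 72 and 51 in the p-UPF1 IP. Scaled by effective library size, the ratio was 35.5 with an exact 95% interval of 6.28 to 1410 for counting error (edgeR adjusted p = 0.00266). ZNF316, a KRAB protein, had 1, 0 and 0 against 88, 46 and 29, a ratio of 34.2 with an interval of 6.06 to 1360 (edgeR adjusted p = 0.00369). In both genes each p-UPF1 IP library exceeded every pre-IP library, and no lower limit of the ratio came below 6. With so few pre-IP counts, these 9 members could reach the minimum sum and the filter only with many p-UPF1 IP counts. Their direction was therefore set by the choice of members, and their calls do not support it.

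ZNF273 and ZNF616 were at 0 in all 3 pre-IP libraries, as were 0.397% of all tested genes. ZNF273 had 53, 43 and 47 counts in p-UPF1 IP, or 16.2, 15.7 and 26.3 CPM, where equal levels would have given 30.02 counts over the pre-IP group. Against a floor of 3 counts over that group it was at least 10.0-fold higher (edgeR adjusted p = 0.00287). ZNF616, named after its values were seen, had 38, 28 and 20 counts in p-UPF1 IP, where equal levels would have given 18.1 in pre-IP, and was at least 6.02-fold higher (edgeR adjusted p = 0.0099). ZNF764, also at 0 in pre-IP and named after its values were seen, had 26, 17 and 18 counts in the p-UPF1 IP and did not reach the filter. ZNF335, ZNF316, ZNF273 and ZNF616 were called in each of the 18 alternative fits that tested them. The fit at a minimum count of 30 did not test them. With so few pre-IP counts they could become members only through their p-UPF1 IP counts, so these calls and bounds do not support a direction.

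ZNF107, a KRAB-pattern protein with 16 predicted fingers, had 0, 0 and 3 counts in pre-IP and 103, 75 and 35 in the p-UPF1 IP. The ratio was 14.9 with an interval of 5.03 to 72.9 (edgeR adjusted p = 0.00686), and the call was lost without p-UPF1 IP replicate 3 (adjusted p = 0.0527). The gene for miR-6839 lies inside it, and reads of both cannot be told apart. ZNF2, ZNF710, ZNF605 and ZNF300 completed the higher calls and are named after their values were seen. ZNF2 had 1, 1 and 0 counts against 44, 41 and 14, a ratio of 10.4 with an interval of 2.80 to 87.0 (edgeR adjusted p = 0.0379). ZNF710, ZNF605 and ZNF300 each had 1 pre-IP count, all in replicate 1, and 86, 83 and 73 counts in p-UPF1 IP, with ratios of 18.1, 17.4 and 15.3 and lower limits of 3.16, 3.04 and 2.67. These 4 calls were lost in 6 or 7 of the 14 to 18 alternative fits that tested them. The gene for miR-3174 lies inside ZNF710, and reads of these also cannot be told apart. The same holds for CHFR, which overlaps ZNF605 on the same strand. Of the 15 higher calls, 7 overlap an annotated gene on the other strand, as do 98 of the 175 members. Among these calls are ZNF710 (with ZNF710-AS1), ZNF300 (with IRGM), ZNF273 and ZNF516.

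Both lower calls were KRAB-pattern genes with 13 predicted fingers. ZNF587 had 19, 19 and 24 counts in pre-IP and 16, 40 and 21 in the p-UPF1 IP. Its CPM of 24.3, 68.0 and 41.5 compared with 4.89, 14.6 and 11.7, so every p-UPF1 IP library was below every pre-IP library. It fell by 2.04 on the log2 scale (SE 0.55, edgeR adjusted p = 0.0154), and the call was lost without p-UPF1 IP replicate 3 or 9 or pre-IP replicate 4 (adjusted p = 0.0822, 0.0548 and 0.0680) and with library totals alone (0.517). Its value is uncertain for another reason: 34.1% of its transcript's 30-base words also occur in transcripts of other genes, and ZNF814 overlaps it on the other strand.

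ZNF786, named after its values were seen, had 17, 5 and 12 counts against 7, 20 and 10. The CPM were 21.8, 17.9 and 20.7 in pre-IP, with little spread, and 2.14, 7.28 and 5.59 in p-UPF1 IP. The log2 fold change was -2.03 (SE 0.69, edgeR adjusted p = 0.0476), with no overlap, but the call held in 4 of 18 alternative fits and was lost whichever library was left out. Only 0.527% of its 30-base words were shared with other genes. Just outside the threshold, and named after their values were seen, ZNF428 had a log2 fold change of -1.56 (edgeR adjusted p = 0.0513) and ZNF721 one of 2.16 (edgeR adjusted p = 0.0556).

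The coding sequence of the linker that joins fingers is printed here as an example of the most repeated element of these mRNAs. The run printed is the most frequent one in each gene. In ZNF616, ZNF317, ZNF146 and ZNF786 no run occurred more than 1 time, and the first in alphabetical order is printed. Each run is 30 bases of a GENCODE release 29 transcript, 5′ to 3′, beginning with the last histidine codon of a finger, and the capitals mark the 15 bases that code for the conserved linker of threonine, glycine, glutamate, lysine and proline.
ZNF107: catACTGGAGAGAAACCCtacaaatgtgaa
ZNF273: catACTGGAGAGAAACCCtacaaatgtgaa
ZNF616: catACCGGAGAGAAACCTtacaaatgcaat
ZNF317: cacACCGGGGAGAAGCCCtacgaatgcctt
ZNF146: cacACAGGAGAGAAGCCCtttgtatgtaag
ZNF786: cacACGGGAGAGAAGCCTtttcagtgtccc
ZNF107 and ZNF273 held the same 30 bases, 2 times each. That run occurred in 10 members, the others being ZNF117, ZNF254, ZNF430, ZNF431, ZNF678, ZNF714, ZNF736 and ZNF92. The printed run of ZNF616 was found in no other gene searched, but it is 1 of 6 differing runs in that gene. It therefore does not show that ZNF616 differs from ZNF107 in this respect. The 15 capital bases occurred in 42 members for ZNF107 and ZNF273 and in 4 for ZNF616. The search covered the chosen transcript of each of 8009 genes with at least 60 counts, so ZNF rows under that minimum were not searched. A read confined to the shared run could have come from any of the 10 or from a gene not searched. How such reads were counted is not given in the sources used here.

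Over whole transcripts, a median of 3.6% of a member's 30-base words also occurred in transcripts of other genes, against 0.294% for tested protein-coding genes. The share ran from 0 to 99.5%, and was highest in ZNF320 (99.5%), ZNF23 (98.9%), ZNF747 (89.7%) and ZNF410 (87.2%). Each of these overlaps another annotated gene on the same strand, such as ZNF468 for ZNF320 and PTGR2 for ZNF410. Their shared words can therefore include the same bases of the genome, and were not separated from those of related copies. Among the higher calls it was 34.1% in ZNF273, 11.6% in ZNF107, 10.4% in ZNF605, 7.13% in ZNF300 and 5.06% in ZNF616, and at most 1.09% in the others. The 35 tested members at or above 10% had a median log2 fold change of 0.33 with 3 higher and 1 lower call, and the 106 below 10% a median of 0.75 with 12 higher and 1 lower call. The higher calls were 8.57% and 11.3%, both near the background of 8.81% of all tested genes. The lower calls were 2.86% and 0.943%, beside 10.9%. Tested protein-coding genes at or above 10% had a median of -0.22, with 6.56% called higher and 17.6% lower. Values of members with a large shared part are uncertain, since the counting could split or drop their reads.

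Many of the most counted ZNF mRNAs did not pass the test. ZNF664 had 107, 23 and 70 counts in pre-IP and 316, 228 and 141 in the p-UPF1 IP, or means of 113 ± 28.0 and 86.1 ± 9.23 CPM (SD, n = 3), with a log2 fold change of -0.42 (edgeR adjusted p = 0.338). ZNF768 had 58, 25 and 49 counts against 373, 256 and 120, or 82.8 ± 7.82 and 91.4 ± 23.5 CPM, with a value of 0.16 (0.762). For ZNF207, a microtubule-binding protein of the mitotic spindle, the counts were 73, 27 and 32 against 315, 165 and 153, and the CPM were 81.8 ± 23.0 and 80.6 ± 18.6. In each of these 3 mRNAs the CPM of the 2 groups overlapped.

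ZNF24, a SCAN-domain transcription factor, had 76, 7 and 62 counts against 281, 232 and 116, or 76.5 ± 44.8 and 78.4 ± 11.7 CPM, and a log2 fold change of -0.03 (edgeR adjusted p = 0.961). ZNF638, which takes part in silencing of unintegrated retroviral DNA, had 69, 4 and 9 counts against 366, 234 and 127, or 39.4 ± 42.3 and 89.3 ± 20.7 CPM, with a value of 1.04 (0.140). ZNF644, a partner of the methyltransferases G9a and GLP, had 75, 6 and 16 counts against 257, 250 and 106, or 48.4 ± 41.3 and 76.3 ± 15.98 CPM, with a value of 0.55 (0.396). Pre-IP replicate 1 was the highest pre-IP library in each of ZNF638 and ZNF644, and in ZNF644 it lay above every p-UPF1 IP library. Without it ZNF638 had a log2 fold change of 2.57 and ZNF644 one of 1.603, and both were called (edgeR adjusted p = 0.00163 and 0.017). ZNF638 was also called with no filter (0.0179). Across the tested members the median coefficient of variation was 0.659 over the pre-IP libraries (n = 139 with a count) and 0.279 over the p-UPF1 IP libraries (n = 141).

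Members with known roles in RNA biology and transcription were followed as groups. Of the RNA and ribosome factors, ZNF326 was called and 4 were not. ZNF598, the ubiquitin ligase that senses collided ribosomes, had 17.9 ± 6.34 CPM in pre-IP and 27.1 ± 4.72 in the p-UPF1 IP, a log2 fold change of 0.62 (edgeR adjusted p = 0.406). ZNF622, a ribosome assembly factor of the large subunit, had 36.3 ± 9.81 against 17.9 ± 6.96, with all p-UPF1 IP libraries below all pre-IP libraries and a log2 fold change of -1.07 that missed the threshold (edgeR adjusted p = 0.112). ZNF346, which binds double-stranded RNA, had a value of 0.44 (0.716).

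Of the corepressor-linked members, ZNF516 was called and 7 were not. ZNF592, ZNF687 and ZNF532, which form a complex around the chromatin reader ZMYND8, had positive log2 fold changes of 1.38, 1.94 and 1.35 (edgeR adjusted p = 0.084, 0.164 and 0.237), and ZNF687 was called without pre-IP replicate 1 (0.039). ZNF592 went from 10.6 ± 3.19 to 26.3 ± 1.85 CPM without overlap of the libraries. ZNF217 had 1.43 (0.263), ZNF451, a SUMO ligase, had -0.22 (0.712) and ZNF410, a regulator of CHD4, had -0.09 (0.928) with the shared sequence given above. Of the transcription factors ZNF143, ZNF76, ZNF148, ZNF281, ZNF263 and ZNF24, none was called, and their log2 fold changes ran from -0.72 in ZNF143 to 1.01 in ZNF263. ZNF263 was called without pre-IP replicate 1 (1.78, edgeR adjusted p = 0.0317). ZNF445, a regulator of imprinting, and ZNF274, which brings SETDB1 to ZNF gene clusters, had 0.68 and 0.80 (edgeR adjusted p = 0.374 and 0.381). In the NET family, ZNF703 went from 19.2 ± 8.45 to 40.5 ± 17.4 CPM, a value of 1.002 (0.150), beside the called ZNF503. A p that misses the threshold at this depth does not show that these mRNAs were equal in the 2 groups.

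The partners of KRAB zinc finger proteins were measured in the same fit. Of 16 tested genes of the KRAB corepressor machinery, 1 rose and 0 fell, with a median log2 fold change of 0.46. The higher share of 6.25% compares with 8.81% of all tested genes. The one that rose was TRIM28, the corepressor itself, from 148 ± 47.6 to 350.3 ± 20.2 CPM (log2 fold change 1.24, SE 0.32, edgeR adjusted p = 0.0111). The call on TRIM28 was lost without pre-IP replicate 7 (adjusted p = 0.054) and with the GC trend removed (0.226). SETDB1 was at 33.9 ± 16.5 and 33.9 ± 4.89 CPM. UPF1 mRNA went from 31.1 ± 15.7 to 105 ± 26.1 CPM, a log2 fold change of 1.70 (edgeR adjusted p = 0.00461), and that call too was lost with the GC trend removed (1.09, adjusted p = 0.0613).

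Among the members themselves, the median log2 fold change differed by the number of zinc fingers. The number of C2H2 patterns in the predicted protein ran from 0 to 33, with a median of 10. Members with 1 to 5 patterns had a median log2 fold change of 0.29 (34 tested, 1 higher, 0 lower), those with 6 to 10 one of 0.68 (49 tested, 4 higher, 0 lower) and those with 11 or more one of 1.17 (53 tested, 9 higher, 2 lower). The libraries lay apart, with p-UPF1 IP above, in 14.7%, 26.5% and 47.2% of these groups, with backgrounds over all tested genes of 21.9% for such libraries and 8.81% for higher calls. Median pre-IP counts were 27, 18 and 14 in the same order, and because members low in pre-IP had to be high in p-UPF1 IP to reach the minimum sum, the order of the groups cannot be told apart from the choice of members. The difference in median between the last and the first group was 0.88, and it stayed positive in all 19 alternative fits, from 0.38 without p-UPF1 IP replicate 6 and 0.40 without pre-IP replicate 4 to 1.149 without pre-IP replicate 1. The correlation with the number of patterns was weak, with Spearman's rho of 0.24 and Pearson's r of 0.26 over 141 members, which share libraries and scaling.

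Coding length moved with the number of fingers. The median coding sequence was 1551, 1639.5 and 1977 bases in the 3 groups of increasing finger number. Coding length itself had a rho of 0.31 with the log2 fold change in the members and 0.46 in tested protein-coding genes. Members with a coding sequence of at most 1770 bases, their median, had a median log2 fold change of 0.27, and longer ones 0.99. Protein-coding genes split at the same length had -0.20 and 0.59. The part of coding length in the difference between finger groups was not tested.

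**Figure D4:**
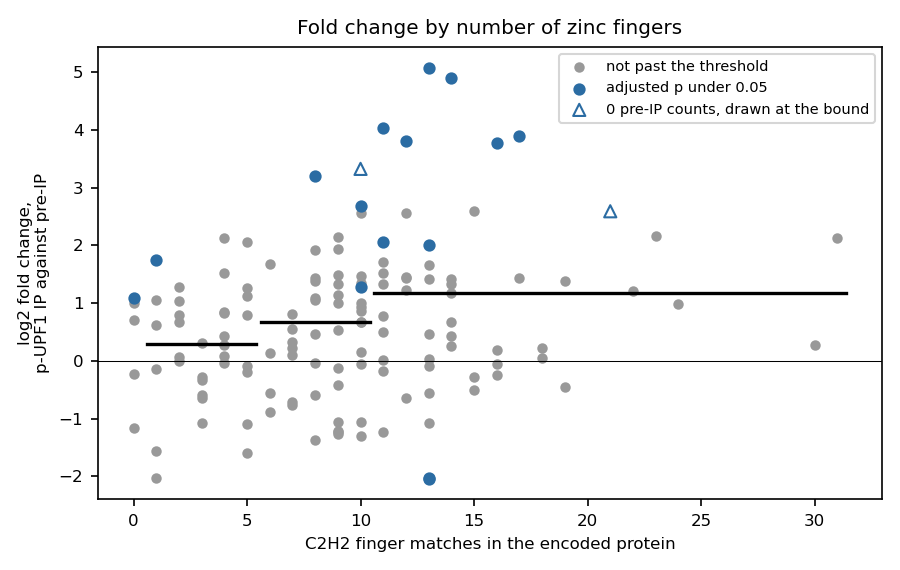
Log2 fold change (p-UPF1 IP over pre-IP) of each tested ZNF member by number of C2H2 patterns in its predicted protein, with ZNF273 and ZNF616 drawn at their lower bound; blue marks an adjusted p under 0.05 and black bars are group medians of fitted values. The medians are 0.29, 0.68 and 1.17 for 1 to 5, 6 to 10 and 11 or more patterns, and the points of the groups overlap widely.

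A KRAB pattern was matched in 81 members, of which 60 were tested, with 8 higher and 2 lower calls and a median log2 fold change of 0.73. The 94 without one had 81 tested, 7 higher and 0 lower calls and a median of 0.62. With and without the pattern, the higher calls were 13.3% and 8.64%, beside a background of 8.81% of all tested genes. The lower calls were 3.33% and 0%, beside 10.9%. The difference of 0.11 lay between -0.007 and 0.48 over the alternatives, and the medians of the 2 classes lay close together. The pattern misses degenerate KRAB domains, such as that of ZNF263.

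Chromosome 19 members had lower values than the others. The 40 tested members on chromosome 19 had a median log2 fold change of 0.13 (3 higher, 1 lower), and the 101 elsewhere one of 0.83 (12 higher, 1 lower). The higher calls were 7.5% and 11.9%, both near the background of 8.81% of all tested genes. The lower calls were 2.5% and 0.99%, beside 10.9%. Within KRAB-pattern members the medians were 0.27 and 0.96, and within the others -0.026 and 0.71. Tested protein-coding genes without the members went the other way, with medians of 0.40 on chromosome 19 and 0.14 elsewhere. The difference of 0.70 among members was positive in 18 of 19 alternative fits. It was -0.42 at a minimum count of 30, which kept 41 members, only 5 of them on chromosome 19. It was 0.28 without p-UPF1 IP replicate 3, 0.21 and 0.22 without pre-IP replicates 4 and 7, 0.46 without p-UPF1 IP replicate 6 and 0.44 without pre-IP replicate 1. Chromosome 19 members also had more shared 30-base words (median 8.06% against 1.59%), more finger patterns (11.5 against 8) and shorter coding sequences (1726.5 against 1854 bases). Their median summed count was lower (97.5 against 145), and members were chosen by that sum. The part of these in the difference was not tested.

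**Figure D5:**
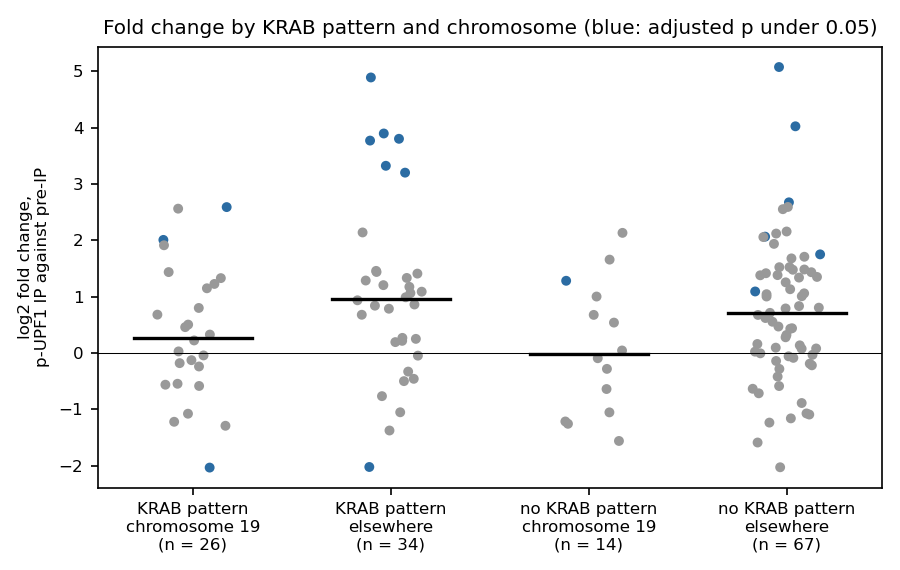
Log2 fold change (p-UPF1 IP over pre-IP) of each tested ZNF member by KRAB pattern and by location on chromosome 19 or elsewhere; ZNF273 and ZNF616 are drawn at their lower bound and black bars are medians of fitted values. The medians on chromosome 19 are 0.27 with the pattern and -0.026 without it, and elsewhere 0.96 and 0.71.

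Features tied to NMD were read from the annotation. A stop codon more than 50 nt before the last exon junction, the classical trigger of NMD, was present in the chosen transcript of 1 member, ZNF550, which had a log2 fold change of 1.91 and missed the threshold (edgeR adjusted p = 0.0849). In 57 members GENCODE annotates at least 1 transcript as an NMD target, and their median was 0.68 (44 tested, 3 higher, 0 lower) against 0.55 in the rest (97 tested, 12 higher, 2 lower). The higher calls were 6.82% and 12.4%, beside a background of 8.81% of all tested genes. The lower calls were 0% and 2.06%, beside 10.9%. Members with an ATG in the 5′ UTR had a median of 0.83 (93 tested, 12 higher or 12.9%), and those with none 0.43 (48 tested, 3 higher or 6.25%). Their p-UPF1 IP libraries lay wholly above the pre-IP libraries in 35.5% and 20.8%, against 21.9% of all tested genes. Without pre-IP replicate 1 the medians were 0.89 and 0.81. Protein-coding genes split in the same way had medians of 0.21 and 0.10, with 9.67% and 8.63% called higher. These splits were made among members chosen by count, and the part of that choice in them was not tested.

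The 3′ UTR, whose length is another known trait of NMD targets, had a median of 1688 bases in the members and 1327 in tested protein-coding genes. Members with shorter and longer 3′ UTRs than that median had median log2 fold changes of 0.67 and 0.68, and rho was -0.048. The members also had fewer exons than tested protein-coding genes, with medians of 5 and 10. Total transcript length had a rho of 0.093 in members and 0.34 in protein-coding genes, and GC content 0.068 and 0.20. These correlations describe genes that share libraries and scaling, and no p is given.

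Calls were also counted by pre-IP counts, beside the background of 8.81% higher. The 69 tested members with more than 20 pre-IP counts had a median log2 fold change of -0.13, with 5 higher and 2 lower calls. Of the 59 with 4 to 20 pre-IP counts, 1 was higher, and of the 11 with 1 to 3, 7 were higher. Both tested members with no pre-IP count were called. Since a member with few pre-IP counts had to have many in p-UPF1 IP to reach the minimum sum, this order is in part set by the choice of members, and nothing is read from it.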

How the data were processed

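The authors deposited raw counts, as whole numbers of reads for each gene symbol in each library, without normalization. Per the submitters' processing notes, reads were trimmed, aligned to hg19 and counted with STAR 2.5.2b, cutadapt 1.15 and Subread 1.5.0p3 (featureCounts). Per the labels' protocols, RNA fragments were dephosphorylated, ligated to adapters and amplified over 20 PCR cycles. No molecular identifiers are described, so intervals and floors cover counting error only. Which annotation and strand setting were used, and how multiply matching reads were treated, is not given in the sources used here.

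In R 4.3.3, counts of all genes were TMM-scaled, filtered by filterByExpr (minimum count 10) and fitted with edgeR 4.0.16 (quasi-likelihood F-test, Benjamini-Hochberg adjustment at 0.05 over 8070 genes). A log2 fold change is p-UPF1 IP over pre-IP, and dividing its size by the root of F gives its SE. CPM are counts scaled by TMM effective library size. A gene with no pre-IP count got a bound against 3 counts over the group, and one with 1 to 3 got an exact (Clopper-Pearson) 95% interval of the ratio. The fit was tested on simulated data, where it called 8.45% of 2-fold, 76.1% of 4-fold and 91.9% of 8-fold changes. Of its 120 calls there, 6 were false. Most changes of 2-fold were thus missed.

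Features were matched by symbol, for all 175 members, to GENCODE release 29 on GRCh38, a later build than that of the table, so no coordinates are given. The transcript was the best APPRIS choice with the longest coding sequence. A finger was C.{2,4}C.{12}H.{3,5}H, with a dot for any residue, and a KRAB pattern was a fixed run of the domain's conserved residues. Shared 30-base words were those found in the sense strand of a transcript of another gene.

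The members, lists and rules were chosen with earlier results of these data known. The named genes were the 8 largest rises and 8 largest falls past the threshold among members with at least the median summed count (128), the 8 most counted members, 2 on each side of the minimum of 60 counts, the role lists, TRIM28, SETDB1 and UPF1. Splits by chromosome, finger number, coding length, UTRs, annotated NMD transcripts, pre-IP counts and shared words were set after the table was seen. The alternatives were other scalings, filters and tools (DESeq2 1.42.0, limma-voom of limma 3.58.1, robust fit), a replicate block, the 10 most counted genes left out, protein-coding genes only, length or GC trends removed, and each library left out in turn.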

Additional observations from a re-analysis of the deposited data

How the results depend on the processing

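The number of higher members was 15 and became 96 with library totals alone and 5 at a minimum count of 30, which tested 41 members, with a range of 6 to 29 when 1 library was left out. The number of lower members was 2 and became 1 with the 10 most counted genes left out, the length trend removed, a minimum count of 30, protein-coding genes only, the replicate block or upper-quartile scaling, 0 with library totals alone and 8 with limma-voom, with a range of 0 to 5 when 1 library was left out. The median log2 fold change of members was 2.16 with library totals alone. The mean share of counts was 0.942% and 0.497% (p-UPF1 IP and pre-IP) of protein-coding counts, and 0.228% in pre-IP without the 10 most counted genes. Over 36 named genes, 575 of 670 values kept their sign and side of the threshold, and 43 changed sign, in 11 genes of which 0 were called. With library totals alone the values were 1.48 for SETDB1, 0.76 for ZNF143, 1.56 for ZNF207, 1.45 for ZNF24, 1.29 for ZNF281, 1.45 for ZNF410, 1.29 for ZNF451, 0.49 for ZNF622 and 1.10 for ZNF664. With no filter they were 0.12 for SETDB1, 0.17 for ZNF207, 0.14 for ZNF24 and 0.079 for ZNF410. With the replicate block they were 0.045 for SETDB1, 0.0081 for ZNF207, 0.075 for ZNF24 and 0.16 for ZNF410. ZNF207 was 0.0067 without the 10 most counted genes, 0.022 with DESeq2, 0.22 and 0.19 with GC and length trends removed, 0.024 with RLE, 0.0041 with limma-voom and 0.028 with upper-quartile scaling. ZNF24 was 0.024 with DESeq2. ZNF410 was 0.14 and 0.021 with GC and length trends removed and 0.20 with limma-voom. With the GC trend removed ZNF598 was -0.10 and ZNF768 -0.53. With 1 library left out the ranges were -0.32 to 0.50 for SETDB1, -0.21 to 0.16 for ZNF207, -0.34 to 0.25 for ZNF24, -0.68 to 0.053 for ZNF281, -0.60 to 0.95 for ZNF410, -0.37 to 0.073 for ZNF451 and -0.043 to 0.35 for ZNF768. The cause was not tested. The replicate block paired label numbers that no label ties together, with deviations correlated at 0.092, 0.172 and 0.102, and gave 13 higher members, 11 of them among the 15, and ZNF638 was called with it (1.41, adjusted p = 0.00847). Low pre-IP depth limits most members: 78, 12 and 53 of 175 reached 10 counts in pre-IP replicates 1, 4 and 7.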

Other observations

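Other zinc finger genes, whose symbols were outside the rule for members, were read from the same fit. Of 208 listed, 84 were tested, and the p-UPF1 IP gave higher calls in 6 and lower calls in 0 (edgeR's quasi-likelihood test, Benjamini-Hochberg adjustment), with a median log2 fold change of 0.55. The higher share of 7.14% compares with 8.81% of all tested genes. The 6 were named after their values were seen. They included 3 of 24 tested genes (12.5%) of the CCCH and CCHC classes, ZC3H11A, ZC3H7B and ZCCHC14, with log2 fold changes of 1.69, 1.72 and 1.87 (edgeR adjusted p = 0.0021, 0.0103 and 0.0019). The other 3 were ZSCAN12, ZNF33A and ZNF204P, with 2, 3 and 0 pre-IP counts. None of 18 tested ZBTB genes, 8 ZFP genes or 10 KLF and SP genes was called. The 15 tested ZNF genes with a letter suffix had 2 higher calls (13.3%) and a median log2 fold change of 1.36, above the members' 0.68. Their p-UPF1 IP libraries lay wholly above the pre-IP libraries in 53.3%, against 21.9% of all tested genes. The 9 tested ZSCAN and ZKSCAN genes had a median of 0.67. A positive median was thus not particular to the members.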
